A study of Mus musculus with 6 samples.

Results

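The progenitor and cell cycle genes are 39 genes that mark dividing neural precursors, drive the cell cycle or copy and segregate chromosomes. They were chosen by name, with earlier results of these data known. All 39 had at least 1 sequence on the array, and 33 were bright enough to test, of 18151 tested among 27670 genes on the array. They were measured in cerebral cortex of male mice, in 3 knock-out samples (numbers 53, 48 and 54, genotype label Cux2-/-) and 3 control samples (numbers 15, 62 and 16), with 1 array per sample. The controls are titled wild type but carry the genotype label Cux2+/-, and the labels do not settle which holds, so they are called controls here. Total RNA was amplified from its poly(A) end with Cy3 as the 1 label and read on Agilent arrays. Age and strain are not given here by any label, nor do the labels state that the samples came from different animals, so the p-values speak for the spread among these 6 samples alone.

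In the developing cortex, radial glia that hold Pax6 and nestin divide at the ventricle, and Neurog2 starts the neuronal programme in their daughters, which then make Neurod1 and doublecortin as young neurons. Division itself runs from D-type cyclins with Cdk4 and Cdk6, held back by inhibitors such as p27 and p57, through replication by the Mcm helicase and Pcna, to mitosis under Cdk1 with the Aurora and Polo kinases. In mature cortex few cells divide, mostly oligodendrocyte precursors, while young neurons arise in the neighbouring subventricular zone and dentate gyrus. Cux2 is a homeodomain transcription factor of upper-layer neurons and of precursors in the subventricular zone, so the comparison bears on whether these genes differ where it is missing.

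Arrays had between 58.5% and 72.7% of probes well above background, and any pair of arrays correlated at 0.982 to 0.989 inside a group and at 0.976 to 0.989 across groups (log2 signal over all probes). Levels are log2 signals relative to the 75th percentile of the array, differences are knock-out minus control on that scale, and tests are limma's, adjusted by Benjamini-Hochberg over all tested probes. Cux2 itself stood at -0.04, -0.05 and -0.01 in knock-out samples 53, 48 and 54 and at -0.04, 0.27 and 0.03 in control samples 15, 62 and 16, with overlapping groups (difference -0.12, limma adjusted p = 0.863), and since no source used here places its probe relative to the mutation, it checks nothing about the labels. All 10 cortical neuron markers were tested, 5 of them higher and 5 lower (median difference 0.01). Over the whole array 24 of 27310 probes passed an adjusted p of 0.05 (0.0879%), which by the brightest probe of each gene came to 19 of 18151 genes (0.105%). The number of arrays limits the precision.

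Of the 33 tested progenitor and cell cycle genes 0 passed the adjusted threshold in limma, and the lowest adjusted p was 0.431, for Cdk1. The 33 genes had a median difference of -0.07, against -0.005 (8830 higher, 9321 lower) for all tested genes, with 13 of the 33 higher and 20 lower. Without scaling between arrays, where the median of all genes stood at 0.17, the median of the 33 was 0.10, and it was -0.03 within slide 1, which held knock-outs 48 and 54 and control 15, and -0.14 within slide 2, which held knock-out 53 and controls 62 and 16. At an unadjusted p under 0.05, 2 stood higher, the helicase subunits Mcm2 and Mcm3, where 3.76% of all tested genes did. At the same p, 5 stood lower, Neurog2, Ccnd2, Cdkn1c, Rrm2 and Cdk1, where 4.03% of all tested genes did. Without scaling the split was 4 higher and 1 lower, where 9.36% of all tested genes were at that p in either direction. The 3 knock-out samples lay wholly above the controls for 3 genes, Mcm2, Mcm3 and Pcna (6.29% of all tested genes), and wholly below them for 6, Ccnd2, Cdkn1c, Rrm2, Cdk1, Mki67 and Aurka (6.93% of all tested genes). The 7 genes at an unadjusted p under 0.05 (7.79% of all tested genes) became 2 without knock-out 48 (6.25% of all) and 4 without control 16 (6.99% of all).

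**Figure D1:**
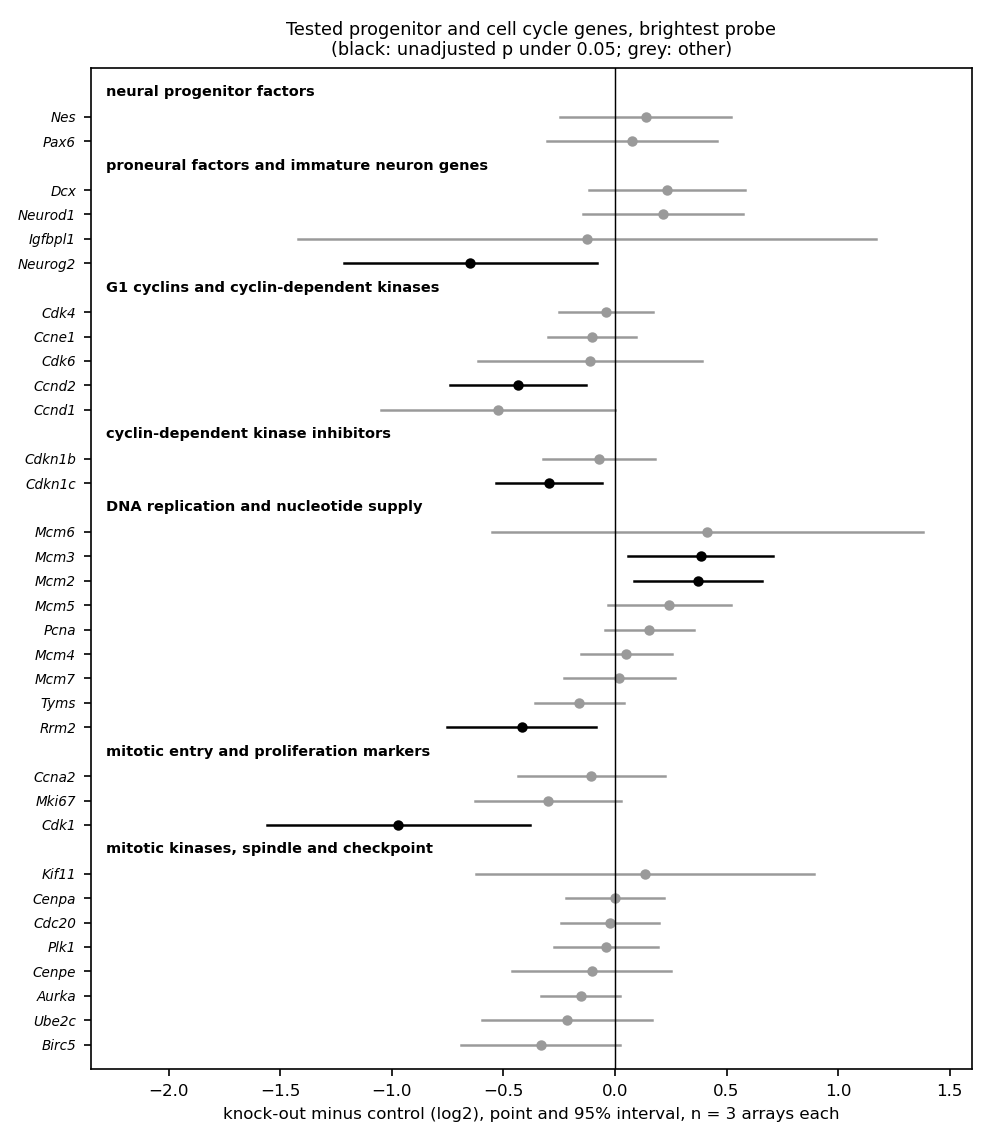
Differences between knock-out and control samples for the 33 tested genes, grouped by role, with the horizontal axis in log2 units and 95% intervals from limma (3 arrays per group). Black points had an unadjusted p under 0.05, with 2 genes to the right of 0 and 5 to the left, and 0 genes passed the adjusted threshold.

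The 39 genes had 67 sequences on the array, of which 43 were tested, and 9 genes had several tested. By its brightest probe a gene was well above background on all 6 arrays in 27 cases, on 3 to 5 arrays in 6, on 1 or 2 arrays in 3 and on none in 3. Those not tested were Cdk2, Aurkb and Bub1, well above background on 0 arrays, Top2a and Bub1b, on 1 array, and Ccnb1, on 2 arrays. The 6 genes tested on 3 to 5 arrays were Neurog2, Igfbpl1, Rrm2, Cdk1, Kif11 and Ube2c, and none of them was well above background on more knock-out than control arrays. Of all probes 63.5%, 58.5% and 68.1% were so in knock-out samples 53, 48 and 54, and 62.7%, 67.1% and 72.7% in control samples 15, 62 and 16. When only genes well above background on all 6 arrays were kept, 27 of the 39 remained, with 2 higher and 3 lower at an unadjusted p under 0.05. The 3 lower genes were 2 of the G1 cyclin and kinase group, against 1 in the main setting, and 1 inhibitor. Neurog2, Rrm2 and Cdk1 were not among the genes kept. Of all genes kept in that setting 8.33% were at that p. With the normexp method, whose fit left a high floor on arrays 48, 54 and 16, Neurog2 turned to 0.47, Rrm2 to 0.36, Cdk1 to 0.41 and Mki67 to 0.09. With normexp 0 of the 33 genes were at an unadjusted p under 0.05, and of all tested genes only 0.567% were. With the Edwards method, chosen after these values were seen, 11 of the 33 were, and 8.31% of all tested genes. In whole cortex, a difference in the number of dividing cells cannot be told apart from a difference in transcript per dividing cell.

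For both neural progenitor factors the knock-out and control samples overlapped. Pax6, a homeodomain factor of radial glia, stood at -1.35, -1.32 and -0.85 in knock-out samples 53, 48 and 54 and at -1.34, -1.10 and -1.30 in control samples 15, 62 and 16. Knock-out 54 was the highest of the 6 samples, and the difference was 0.08 (95% interval -0.31 to 0.46), which became -0.09 without knock-out 54 and was 0.26 within slide 1 and -0.15 within slide 2. A second tested Pax6 probe differed by 0.08. Nestin (Nes), the intermediate filament of neural precursors, which vessel cells also make, stood at -0.47, -0.77 and -0.60 in the knock-out samples and at -0.99, -0.45 and -0.82 in the controls. Controls 62 and 15 were the highest and the lowest of the 6, and the difference was 0.14 (95% interval -0.25 to 0.52), or 0.02 without control 15 and 0.29 without control 62.

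Neurog2 is a proneural factor that commits precursors to excitatory neurons. It stood at -5.66, -5.59 and -5.38 in knock-out samples 53, 48 and 54 and at -4.74, -5.42 and -4.53 in control samples 15, 62 and 16. Control 62 lay among the knock-outs while controls 15 and 16 lay above all of them, so the groups overlapped. The difference was -0.65 (SE 0.23, limma unadjusted p = 0.0312, adjusted p = 0.623), and the probe cleared background on 1 of 3 knock-out arrays and 3 of 3 control arrays. The Neurog2 difference was -0.74 within slide 1 and -0.69 within slide 2. Leaving out control 62 gave -0.91, and leaving out knock-out 53, knock-out 48, control 15 or control 16 put its unadjusted p between 0.0727 and 0.0935.

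Neurod1, which acts after Neurog2 in young neurons, stood at -2.86, -2.75 and -2.87 in knock-out samples 53, 48 and 54 and at -2.72, -3.19 and -3.21 in control samples 15, 62 and 16. The knock-outs lay close together, above controls 62 and 16 and below control 15, with a difference of 0.22 (95% interval -0.14 to 0.58). Without control 15 it was 0.38 (limma unadjusted p = 0.00507, adjusted p = 0.331), where 10.7% of all tested genes were at an unadjusted p under 0.05. The Neurod1 difference was -0.09 within slide 1 and 0.35 within slide 2. Doublecortin (Dcx), a microtubule-associated protein of migrating neurons, stood at -0.20, -0.17 and 0.23 in the knock-outs and at -0.25, -0.44 and -0.16 in the controls. Knock-out 54 was the highest and the groups overlapped, with a difference of 0.23 that was 0.10 without knock-out 54 and -0.04 by a second, dimmer probe. Igfbpl1, a relative of the insulin-like growth factor binding proteins found in neuroblasts, stood at -5.47, -4.23 and -3.30 in the knock-outs and at -4.22, -3.83 and -4.58 in the controls. Its knock-out samples spanned the whole range of the 6, from the lowest in knock-out 53 to the highest in knock-out 54, and its difference of -0.13 (95% interval -1.42 to 1.17) became 0.44 without knock-out 53 and -0.65 without knock-out 54, and was 0.45 within slide 1 and -1.27 within slide 2.

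Knock-out 54 also stood apart in markers of the subventricular zone and olfactory bulb. Of 17 listed markers 15 were on the array and all 15 were tested, and their mean deviation from each gene's mean over the 6 arrays was -0.51, -0.36 and 1.18 in knock-out samples 53, 48 and 54 and -0.08, 0.00 and -0.23 in control samples 15, 62 and 16. Eomes, a T-box factor of intermediate precursors and olfactory bulb projection neurons, stood at -6.27, -6.67 and -2.20 in the knock-outs and at -6.84, -5.54 and -6.12 in the controls. The rise on knock-out 54 was uneven among the markers. Th stood at -4.54, -4.19 and -0.38 in knock-out samples 53, 48 and 54, and Dlx2 at -0.62, -0.62 and 0.22. Sox11, Synpr and Etv1 were not highest on that array. Eomes is also counted among the other progenitor genes below, and Sox11 and Cd24a of these markers among the immature neuron genes. Pax6, Dcx and Igfbpl1 were highest on the same array, as was the helicase subunit Mcm6 described below, and the part of these markers in those results was not tested.

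**Figure D2:**
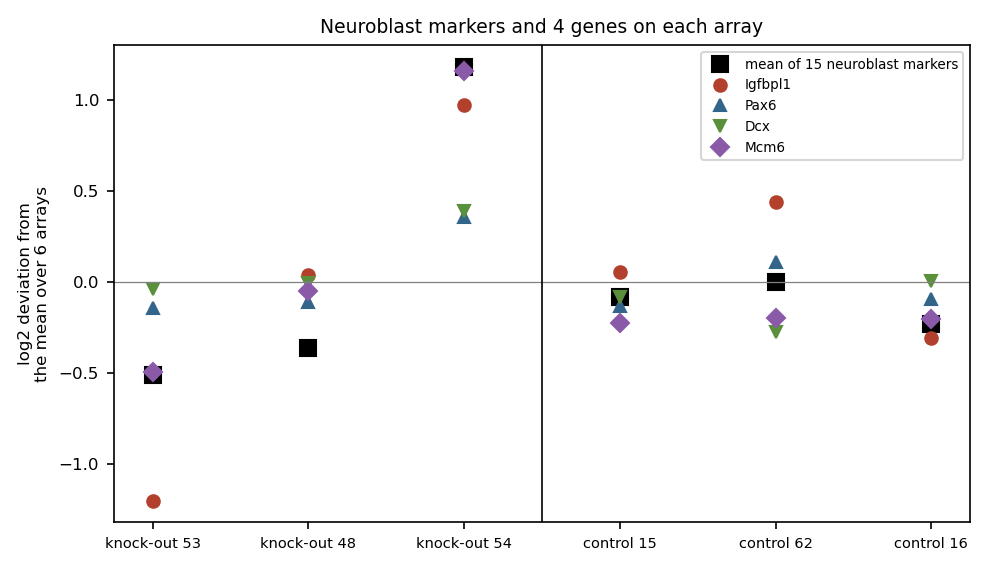
Deviation of the mean of 15 subventricular zone and olfactory bulb markers, and of Igfbpl1, Pax6, Dcx and Mcm6, from their own mean over the 6 arrays (vertical axis, log2), with the 3 knock-out samples on the left and the 3 controls on the right. On knock-out 54 the marker mean stood at 1.18 and all 4 genes were at their highest. Sox11, Synpr and Etv1 among the markers were not highest there.

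The G1 cyclins and their kinases stood lower in 5 of 5 tested genes (median -0.11), and in 2 of 5 without scaling between arrays, where their median was 0.06 against 0.17 for all genes. Ccnd2, the D-type cyclin of intermediate precursors and of adult neurogenesis, stood at 2.29, 2.18 and 2.08 in knock-out samples 53, 48 and 54 and at 2.39, 2.78 and 2.68 in control samples 15, 62 and 16. All knock-outs lay below all controls, with a difference of -0.44 (SE 0.13, limma unadjusted p = 0.0124, adjusted p = 0.516), or 1.35-fold higher in controls. The 2 other Ccnd2 probes stood apart in the same direction by -0.47 and -0.34, also without overlap. With 1 array left out at a time the difference of the brightest probe ran from -0.55 to -0.36 and its unadjusted p in limma from 0.00241 to 0.0427. Within slide 1 the difference was -0.26, and within slide 2 it was -0.44.

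Ccnd1, the D-type cyclin that responds to growth factors, stood at 0.34, 0.27 and 0.28 in knock-out samples 53, 48 and 54 and at 0.31, 1.11 and 1.05 in control samples 15, 62 and 16. Control 15 lay among the 3 knock-outs, and controls 62 and 16 stood above them. Its difference of -0.53 (SE 0.22, limma unadjusted p = 0.0503, adjusted p = 0.669) was -0.03 within slide 1 and -0.74 within slide 2. Without control 15, the control that lay among the knock-outs, it was -0.78 (limma unadjusted p = 0.000137, adjusted p = 0.129). In that setting 10.7% of all tested genes were at an unadjusted p under 0.05. Without control 62 the Ccnd1 difference was -0.38. The other tested genes of the group differed by less, cyclin E1 (Ccne1), which activates Cdk2 at the start of replication, by -0.10, the kinase Cdk4 by -0.04 and Cdk6 by -0.11. Cdk6 was tested through a probe named by a cDNA, while its 2 other probes were well above background on 0 arrays.

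Both inhibitors stood lower, although without scaling Cdkn1b turned to 0.10. Cdkn1c (p57), which takes precursors out of the cycle, stood at 0.49, 0.26 and 0.39 in knock-out samples 53, 48 and 54 and at 0.56, 0.76 and 0.70 in control samples 15, 62 and 16. The groups did not overlap, and the difference was -0.30 (SE 0.10, limma unadjusted p = 0.0217, adjusted p = 0.579), with -0.24 within either slide. Its unadjusted p was between 0.0566 and 0.0799 without knock-out 48, control 62 or control 16. Cdkn1b (p27), which holds cells in G1, stood at -0.39, -0.33 and -0.35 in the knock-outs and at -0.44, -0.10 and -0.31 in the controls. The groups overlapped, with a difference of -0.07 (95% interval -0.32 to 0.18) that became 0.02 without control 62, was 0.10 within slide 1 and -0.18 within slide 2, and was 0.01 by a second tested probe.

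**Figure D3:**
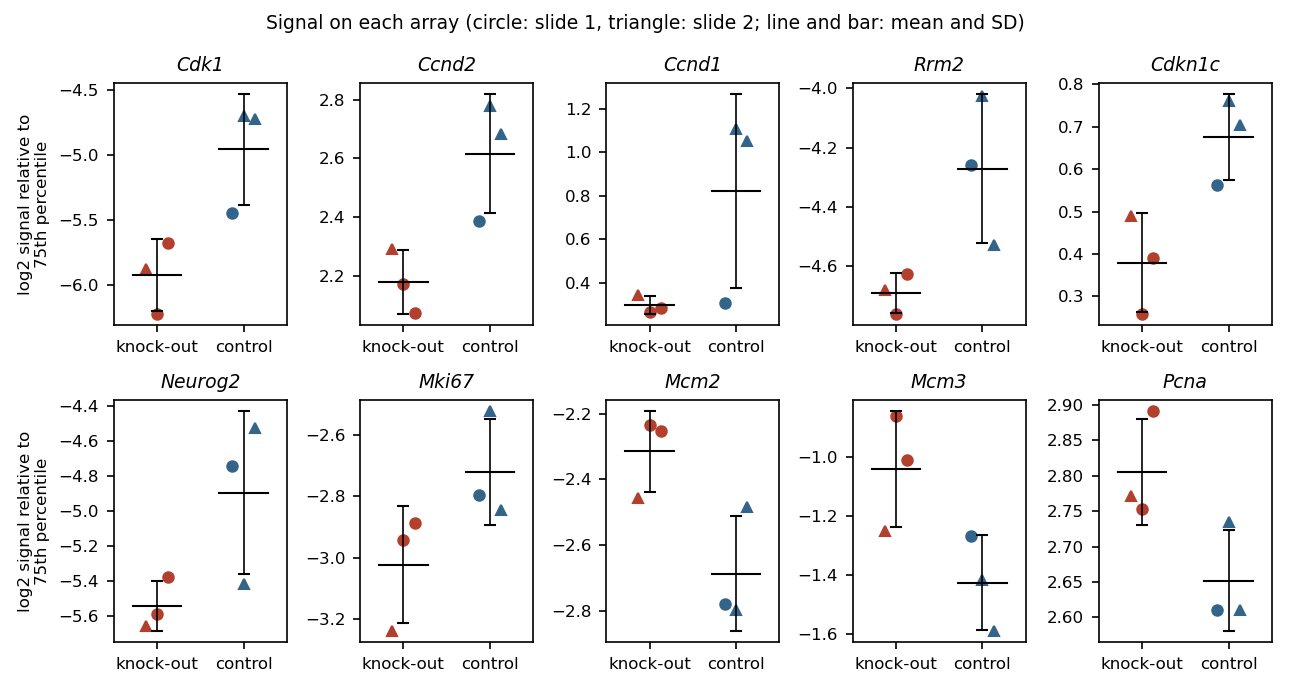
Level of 10 genes on each array (vertical axis, log2 signal relative to the 75th percentile of the array, a separate scale for each gene), knock-out samples left in red and controls right in blue, with means and SD (3 arrays per group) and slide shown by the symbol. For Ccnd1 control 15 at 0.31 lay with the knock-outs at 0.27 to 0.34, while for Ccnd2 the groups did not overlap.

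Replication and mitosis genes are commonly regulated through different promoter elements, E2F sites for genes of the G1 to S step and CHR elements, often with CCAAT boxes, for genes of G2 and mitosis. By the brightest probe Mcm2 and Mcm3 stood higher in the knock-out samples while Cdk1 and Mki67 stood lower. A second tested Mcm3 probe differed by -0.09. The promoters of these 4 genes, picked by their values, are shown. Each runs from 250 bases before to 50 bases from the transcription start on, 5′ to 3′ on the gene's strand, from RefSeq on GRCm38.p6, and capitals mark E2F-type (TTTCCCGC, TTTGGCGC, TTTCGCGC or TTTGCCGC) and CHR-type (TTTGAA or TTCGAA) letters on either strand. All 4 genes lie on the minus strand, Mcm2 at chr6:88898731-88899030, Mcm3 at chr1:20820263-20820562, Cdk1 at chr10:69352863-69353162 and Mki67 at chr7:135716330-135716629.
Mcm2: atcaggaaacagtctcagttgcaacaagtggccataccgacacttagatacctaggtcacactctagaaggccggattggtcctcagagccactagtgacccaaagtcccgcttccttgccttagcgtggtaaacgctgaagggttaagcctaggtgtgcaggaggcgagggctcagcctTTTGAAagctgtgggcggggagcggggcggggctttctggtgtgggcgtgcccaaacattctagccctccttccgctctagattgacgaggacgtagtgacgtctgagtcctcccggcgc
Mcm3: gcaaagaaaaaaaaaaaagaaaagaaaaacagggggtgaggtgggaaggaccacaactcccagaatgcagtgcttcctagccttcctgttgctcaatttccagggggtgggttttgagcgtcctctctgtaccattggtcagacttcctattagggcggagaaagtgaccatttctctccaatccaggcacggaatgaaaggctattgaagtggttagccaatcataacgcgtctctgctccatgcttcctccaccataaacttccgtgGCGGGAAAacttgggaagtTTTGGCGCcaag
Cdk1: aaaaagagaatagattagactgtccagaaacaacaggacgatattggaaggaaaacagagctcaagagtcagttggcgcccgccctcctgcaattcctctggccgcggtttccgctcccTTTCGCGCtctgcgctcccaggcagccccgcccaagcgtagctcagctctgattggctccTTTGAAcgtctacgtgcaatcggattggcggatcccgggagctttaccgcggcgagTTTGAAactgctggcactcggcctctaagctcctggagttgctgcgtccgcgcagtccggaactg
Mki67: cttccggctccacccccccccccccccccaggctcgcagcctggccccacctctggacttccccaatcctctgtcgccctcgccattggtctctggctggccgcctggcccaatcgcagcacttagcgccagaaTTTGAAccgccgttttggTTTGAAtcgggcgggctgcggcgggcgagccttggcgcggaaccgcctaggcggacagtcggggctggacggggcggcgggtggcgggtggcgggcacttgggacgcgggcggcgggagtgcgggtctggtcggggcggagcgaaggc
The 2 E2F-type matches of Mcm3 begin 20 and 39 bases after the start, whereas Mcm2 held no E2F-type letters and 1 CHR-type match that begins 70 bases before the start. Cdk1 held 1 E2F-type match 131 bases and 2 CHR-type matches 71 and 15 bases before the start, and Mki67 held 2 CHR-type matches 116 and 98 bases before it. The promoter of Rrm2, a gene of the replication group that stood lower, is not shown and held 0 E2F-type and 0 CHR-type matches. Promoters were found for 32 of the 39 genes, 35 promoters in all, and not for Ccna2, Cdkn1c, Ccnd1, Mcm4, Aurkb, Ccnd2 and Igfbpl1. E2F-type letters were in 17.1% of the 35 (4 of 9 in the replication group, 0 of 10 in the mitotic kinase and spindle group), against 2.26% of the 32851 promoters of the table. CHR-type letters were in 37.1% (2 of 9 in the replication group, 8 of 10 in the mitotic kinase and spindle group), against 19.2% of the table, and CCAAT in 74.3%, against 37.4%. In the 35 promoters 1 pair of matches to different motifs overlapped, and a match is a run of letters, not a measured site.

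The genes of DNA replication and nucleotide supply stood higher in 7 and lower in 2 of 9 (median 0.15), or in 6 and 3 with arrays centred on their median. Without knock-out 54 this was 5 higher and 4 lower, with a median of 0.05. Within slide 1 and within slide 2 it was likewise 5 higher and 4 lower, with medians of 0.21 and 0.03. Mcm2, a subunit of the replicative helicase, stood at -2.46, -2.24 and -2.25 in knock-out samples 53, 48 and 54 and at -2.78, -2.80 and -2.49 in control samples 15, 62 and 16. Every knock-out lay above every control, knock-out 53 and control 16 being nearest to each other, and the difference was 0.37 (SE 0.12, limma unadjusted p = 0.0194, adjusted p = 0.571), 1.29-fold higher, with 0.54 within slide 1 and 0.19 within slide 2. Its unadjusted p was between 0.0582 and 0.064 without knock-out 48, knock-out 54, control 15 or control 62.

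Mcm3, another subunit of the same helicase, stood at -1.25, -0.86 and -1.01 in knock-out samples 53, 48 and 54 and at -1.27, -1.42 and -1.59 in control samples 15, 62 and 16. Its groups did not overlap either (difference 0.38, SE 0.14, limma unadjusted p = 0.0275, adjusted p = 0.607), but a second Mcm3 probe, also well above background on all arrays, differed by -0.09, and the mean of both gave 0.15. The brighter probe differed by 0.33 within slide 1 and 0.25 within slide 2, and its unadjusted p was between 0.0617 and 0.0887 without knock-out 48, knock-out 54, control 62 or control 16. Of the other helicase subunits, Mcm4 differed by 0.05, Mcm5 by 0.24, Mcm6 by 0.41 and Mcm7 by 0.02. Mcm6 stood at -0.60, -0.15 and 1.06 in knock-out samples 53, 48 and 54 and at -0.33, -0.30 and -0.30 in control samples 15, 62 and 16, so knock-out 54 lay far above the other 5 samples and knock-out 53 below them.

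Pcna, the sliding clamp of DNA polymerase, stood at 2.77, 2.75 and 2.89 in knock-out samples 53, 48 and 54 and at 2.61, 2.74 and 2.61 in control samples 15, 62 and 16. The lowest knock-out lay just above the highest control, and the difference was 0.15 (95% interval -0.05 to 0.35, limma unadjusted p = 0.11). Both enzymes of nucleotide supply stood lower. Rrm2, the regulated subunit of ribonucleotide reductase, stood at -4.68, -4.76 and -4.63 in the knock-outs and at -4.26, -4.03 and -4.53 in the controls. Its groups did not overlap (difference -0.42, SE 0.14, limma unadjusted p = 0.0214, adjusted p = 0.579), with knock-out 48 lowest, and the probe cleared background on 2 of 3 knock-out arrays and on every control array. The difference was -0.44 within slide 1 and -0.40 within slide 2, and its unadjusted p was between 0.0501 and 0.0646 without knock-out 53, knock-out 48, control 15 or control 62. Thymidylate synthase (Tyms), which makes the thymidine nucleotide, differed by -0.16, with -0.12 by its second tested probe.

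The genes of mitotic entry and proliferation stood lower in 3 of 3 tested (median -0.30), in 2 of 3 without scaling and in 0 of 3 with normexp background correction (median 0.29). Cdk1, the kinase that starts mitosis, had the lowest p of the 33 genes. It stood at -5.88, -6.22 and -5.67 in knock-out samples 53, 48 and 54 and at -5.45, -4.70 and -4.72 in control samples 15, 62 and 16. The knock-outs lay below all controls, control 15 being nearest to them, and the difference was -0.97 (SE 0.24, limma unadjusted p = 0.00654, adjusted p = 0.431), 1.96-fold higher in controls. A second Cdk1 probe was well above background on 0 arrays and was not tested. The tested probe was dim and cleared background on 1 of 3 knock-out arrays and 2 of 3 control arrays. Both size and direction of its difference depended on the background correction, at -0.38 with the Edwards method and 0.41 with normexp. The difference was -0.51 within slide 1 and -1.17 within slide 2, and its unadjusted p stayed between 0.000855 and 0.0273 with 1 array left out at a time.

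Mki67, the proliferation antigen Ki-67, stood at -3.24, -2.94 and -2.89 in knock-out samples 53, 48 and 54 and at -2.80, -2.52 and -2.84 in control samples 15, 62 and 16. The groups did not overlap, knock-out 54 and control 16 being nearest to each other, and the difference was -0.30 (95% interval -0.63 to 0.03, limma unadjusted p = 0.0661), or -0.19 without knock-out 53, -0.12 within slide 1 and -0.56 within slide 2. A second, dimmer Mki67 probe differed by -0.30 with overlapping groups. That probe cleared background on 1 of 3 knock-out arrays and 2 of 3 control arrays, and differed by 0.36 within slide 1 and -0.84 within slide 2. Cyclin A2 (Ccna2), which partners Cdk2 and Cdk1, differed by -0.11. Top2a, the topoisomerase that untangles chromosomes in mitosis, stood at -6.32, -6.87 and -6.72 in the knock-outs and at -6.79, -6.11 and -5.94 in the controls, but it was well above background only on 1 control array, so no fold is given. Cyclin B1 (Ccnb1), the mitotic partner of Cdk1, was well above background on 1 array of either group.

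Among mitotic kinases, spindle and checkpoint genes 2 stood higher and 6 lower of 8 tested (median -0.07), or 6 higher and 2 lower both without scaling and with normexp, where the median was 0.10. At an unadjusted p under 0.05 there were 0 of them in limma. Aurora A (Aurka), a centrosome kinase, was the one gene of the group whose knock-out samples lay below all controls, at -1.33, -1.38 and -1.31 in knock-out samples 53, 48 and 54 and -1.17, -1.14 and -1.24 in control samples 15, 62 and 16. That difference was small, at -0.15 (95% interval -0.33 to 0.02). Survivin (Birc5), of the chromosomal passenger complex, differed by -0.33 (95% interval -0.69 to 0.02), with -0.60 within slide 1 and -0.04 within slide 2. Ube2c and Cdc20, which work with the anaphase-promoting complex, differed by -0.22 and -0.02. The Polo kinase Plk1 differed by -0.04, the centromeric histone Cenpa by 0.00 (95% interval -0.22 to 0.22), the kinetochore motor Cenpe by -0.11 and the spindle motor Kif11 by 0.13. Cenpe was tested through a probe named by a cDNA, while its other probes were well above background on 1 array and on 0 arrays. The Kif11 interval was wide (-0.62 to 0.89) and its probe cleared background on 1 of 3 knock-out arrays and 3 of 3 control arrays. The checkpoint kinase Bub1, its relative Bub1b and Aurora B (Aurkb) were among the genes too dim to test.

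**Figure D4:**
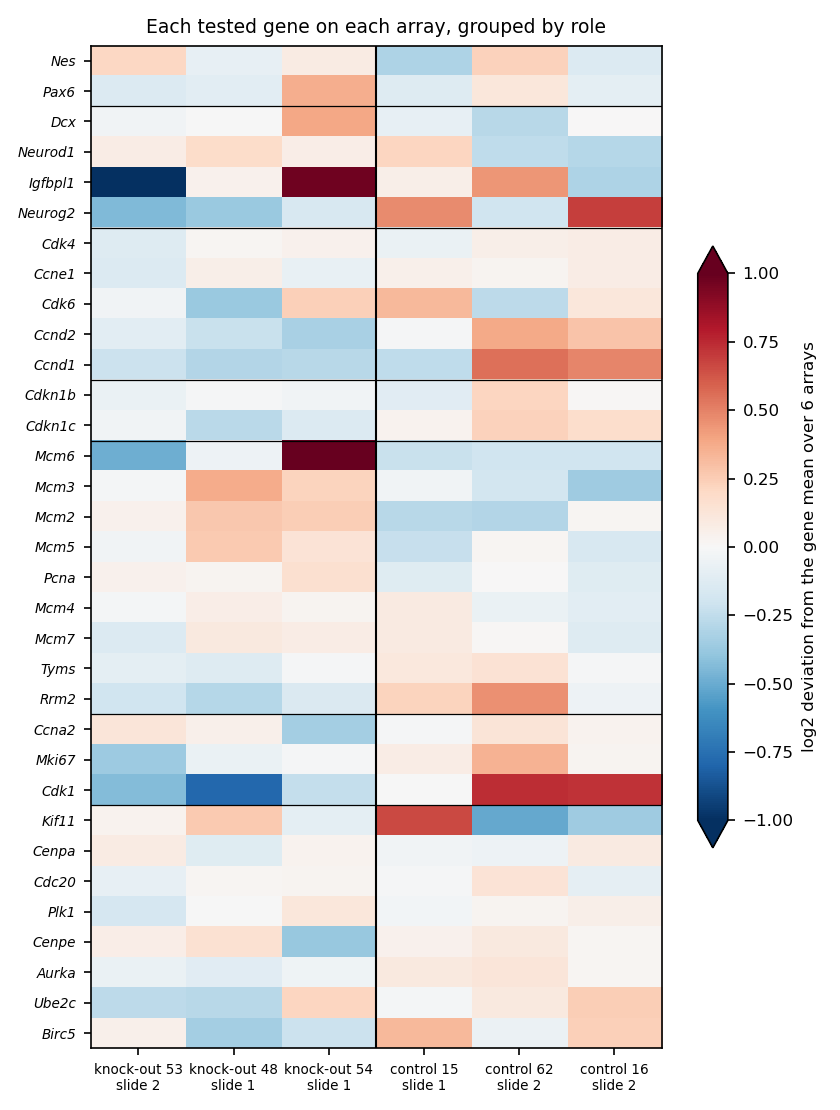
Log2 deviation of each of the 33 tested genes (rows, grouped by role) from its mean over the 6 arrays (columns, knock-out samples left of the line and controls right, with the slide under each), red above and blue below the mean, with colours capped at 1 either way. Ccnd2 and Cdk1 had every knock-out array below every control array, while Igfbpl1 and Mcm6 were highest on knock-out 54 and lowest on knock-out 53.

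Other genes of the same pathways were counted from 5 further lists, chosen with earlier results of these data known. In limma 0 genes of any of these lists passed the adjusted threshold. Other progenitor genes stood higher in 8 and lower in 11 of 19 (median -0.02, 0 at an unadjusted p under 0.05), 16 and 3 without scaling, and 14 and 5 with normexp. Hopx, of outer radial glia and astrocytes, had the lowest p, with a difference of 0.25. Other genes of immature neurons stood higher in 6 and lower in 7 of 13 tested (median -0.01), or 10 and 3 without scaling and 7 and 6 with quantile normalization. At an unadjusted p under 0.05 were 2, both lower (4.03% of all tested genes were), Dpysl3, a growth cone protein, which differed by -0.22, and Sox11, a transcription factor of young neurons, which differed by -0.33.

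Other G1 and S phase regulators stood higher in 9 and lower in 13 of 22 (median -0.05), 20 and 2 without scaling, or 17 and 5 with normexp, and 0 were at an unadjusted p under 0.05. Other replication genes stood higher in 19 and lower in 17 of 36 (median 0.02), or 13 and 23 with arrays centred on their median, 17 and 19 with quantile normalization and 31 and 5 without scaling. Of these, 3 stood higher and 1 lower at an unadjusted p under 0.05, where 3.76% and 4.03% of all tested genes did. Cdt1, which loads the helicase at origins, stood at -0.28, -0.37 and -0.09 in knock-out samples 53, 48 and 54 and at -0.63, -0.82 and -0.68 in control samples 15, 62 and 16 (difference 0.46, limma adjusted p = 0.341). The clamp loader subunits Rfc3 and Rfc5 differed by 0.49 (adjusted p = 0.338 in limma) and 0.22. The origin recognition subunit Orc3 was the 1 gene lower at that p, with a difference of -0.38 (limma adjusted p = 0.311).

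Other mitosis genes stood higher in 11 and lower in 32 of 43 tested (median -0.13), against 8830 higher and 9321 lower among all tested genes. Without scaling between arrays it was 25 higher and 18 lower (median 0.05, against 0.17 for all genes), and with normexp background correction it was 31 higher and 12 lower (median 0.18, against 0.05 for all genes). With normexp 0 of these mitosis genes were at an unadjusted p under 0.05 in limma, where 0.567% of all tested genes were. Lower genes numbered between 28 and 33 with 1 array left out at a time. In the main setting 2 were higher and 6 lower at an unadjusted p under 0.05, where 3.76% and 4.03% of all tested genes were. The groups did not overlap for 3 higher and 12 lower genes of the 43, where 6.29% and 6.93% of all tested genes did not. Spc24, a subunit of the Ndc80 kinetochore complex, stood at -3.58, -3.64 and -3.65 in knock-out samples 53, 48 and 54 and at -2.88, -2.46 and -3.03 in control samples 15, 62 and 16 (difference -0.83, limma adjusted p = 0.259). Cenpk, of the inner kinetochore, differed by -0.64 (limma adjusted p = 0.259), the chromosome motor Kif4 by -0.50 (limma adjusted p = 0.276) and Prc1, which bundles the central spindle, by -0.37 (limma adjusted p = 0.428). These 4 genes are among the 12.

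**Figure D5:**
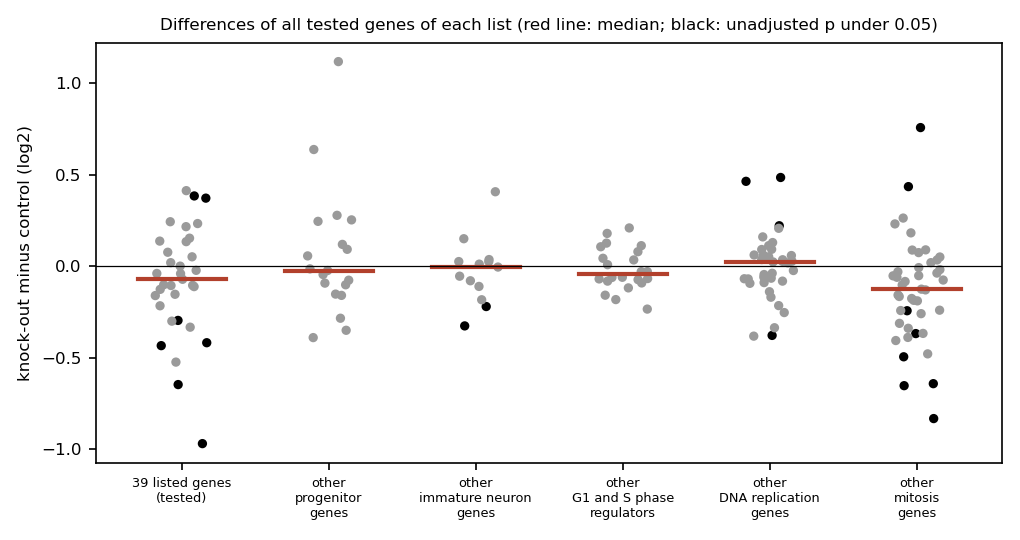
Difference between knock-out and control samples (vertical axis, log2) of each tested gene among the 39 and in the 5 further lists, with the median of each list as a red line and genes at an unadjusted p under 0.05 in black. Other mitosis genes had a median of -0.13 with 32 of 43 below 0 (18 of 43 without scaling and 12 of 43 with normexp background correction), and other replication genes a median of 0.02.

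Markers of other cell types were set beside these genes. Oligodendrocyte precursor markers were all tested, 6 higher and 4 lower of 10 (median 0.06), with mean deviations from -0.06 to 0.13 in the knock-outs and from -0.10 to 0.07 in the controls. Microglial markers stood lower in 14 of 14 (median -0.43), with mean deviations from -0.23 to -0.22 in the knock-outs and from 0.12 to 0.40 in the controls. In limma 11 of the 14 were lower at an unadjusted p under 0.05, where 4.03% of all tested genes were, and 0 passed the adjusted threshold. Astrocyte markers stood lower in 11 of 12 (median -0.14) and dentate granule cell markers higher in 7 of 9 (median 0.10). Striatal markers stood lower in 12 of 12 (median -0.51), from -0.38 to -0.15 in the knock-outs and from -0.24 to 0.54 in the controls. Glis3 of the dentate list was well above background on no array, and every marker in the other 4 of these lists was so on at least 1. These shifts ran beside the differences of the other mitosis genes, of which 32 of 43 were lower in the main setting, 18 without scaling and 12 with normexp. The part of these shifts in those differences was not tested.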

How the data were processed

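Gene expression was measured in cerebral cortex of 3 Cux2 knock-out and 3 control samples, grouped by title and genotype label, with 1 array each on 2 slides. Scans were read with Agilent Feature Extraction 9.1.3.1, per the file headers, whose processed signal is an intensity after background subtraction and detrending, with surrogate values for dim spots. The authors deposited a table of log2 values in which every column has the same distribution and ranks as the processed signal of its array. Its centring and direction are not stated, and it served as an alternative.

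Control spots and 120 outlier values were left out, 0 spots were saturated, and averaging spots left 41174 probes. Levels are the log2 processed signal less the 75th percentile of the array. A probe was tested if well above background on at least 3 of the 6 arrays, whichever these were, and the brightest probe stood for its gene. Genes were matched by the array's own names (Cdc2a for Cdk1), and 1 probe whose older name is shared with another gene was left out. Over the whole array 22951 probes were named by accession, 6659 by symbol and 3109 by synonym through a RefSeq gene table, and 8455 kept the array's name. Knock-out and control were compared by limma 3.58.1 (lmFit, eBayes; R 4.3.3), p-values were adjusted by Benjamini-Hochberg across every tested probe with a threshold of 0.05, and the procedure was tested on simulated data. Promoter letters were searched on both strands of the RefSeq table.

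The genes and lists were chosen with earlier results of these data known. Given in full are genes at an unadjusted p under 0.05, genes whose probes differ by over 0.5, and Pax6, Nes, Neurog2, Neurod1, Dcx, Igfbpl1, Ccnd1, Ccnd2, Cdk1, Mki67, Top2a, Cdkn1b, Cdkn1c and Pcna, with up to 4 genes of lowest p from each further list. Alternatives changed scaling, background correction, the dim-probe filter, the model of variance, the slide, the values used, the value per gene and the arrays left out. Python 3.11.15 with matplotlib 3.10.9 drew the figures.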

Additional observations from a re-analysis of the deposited data

How the results depend on the processing

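Of the 33 tested genes 0 passed the adjusted threshold in the main setting and in all 20 alternatives. The 7 at an unadjusted p under 0.05 became 0 with normexp and 11 with Edwards background correction, Edwards being added after seeing the data, and 2 to 7 with single arrays left out. Of all tested genes 7.79% were at that p in the main setting, 0.567% with normexp, 8.31% with Edwards and 5.98% to 10.7% with single arrays left out. The median difference of the 33 genes, -0.07, became 0.10 without scaling between arrays, 0.10 with normexp and -0.14 within slide 2, and ran from -0.09 to -0.04 with single arrays left out. The 24 probes past the threshold over the whole array became 0 with normexp, 47 with Edwards, 3 with probes well above background on at least 1 array, 2 with no filter on dim probes, 37 with an intensity trend in the variance and 9 with slide as a block, and 1 to 21 with single arrays left out (1 without control 16, 2 without control 15, 8 without knock-out 54 and 14 without knock-out 48). Directions turned for Pax6 (-0.007 with array weights and -0.086 without knock-out 54), Igfbpl1 (0.048 without scaling, 0.275 with normexp, 0.443 without knock-out 53 and 0.061 without control 62) and Cdkn1b (0.103 without scaling and 0.018 without control 62). With normexp they also turned for Neurog2 (0.47), Rrm2 (0.36), Cdk1 (0.41) and Mki67 (0.089). Further in the main direction were Pax6 without knock-out 53 (0.165), Igfbpl1 without knock-out 54 (-0.645) and Cdkn1b without control 15 (-0.149). Within slides, Neurod1 was -0.091 and Igfbpl1 0.45 in slide 1, Cdkn1b was 0.096 in slide 1 and Pax6 -0.148 in slide 2, each against its main direction. The cause was not tested, but the 5th percentile of log2 signal after normexp was 5.95, 8.36 and 9.53 on knock-out arrays 53, 48 and 54 and 5.89, 5.88 and 9.30 on control arrays 15, 62 and 16, against 5.68 to 5.86 on all 6 with Edwards. Matching probes by accession or current symbol added 0 probes, so that alternative gives the same values. Of the genes given in full, Ccnd1, Ccnd2, Cdkn1c, Mcm2, Mcm3, Pcna, Nes and Dcx kept their direction in every alternative run. No paired analysis was possible because the groups share no replicate number. Among tested genes Neurog2, Igfbpl1, Rrm2, Cdk1, Kif11 and Ube2c were not well above background on every array, and 6 further genes were too dim to test.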

Other observations

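Within the wider list of mitosis genes, subunits of the kinetochore stood on both sides of 0, and these genes were picked out after their values were seen. Of the Ndc80 complex, which binds microtubules, Spc25 differed by -0.37, with Spc24 described above, while Nuf2 differed by 0.09 and Ndc80 by 0.76 (limma adjusted p = 0.542). Ndc80 stood at -3.68, -4.37 and -4.40 in knock-out samples 53, 48 and 54 and at -4.92, -5.15 and -4.66 in control samples 15, 62 and 16, without overlap. Of the inner kinetochore, Cenph differed by -0.65 (limma adjusted p = 0.471) without overlap and Cenpi by -0.13 with overlapping groups. Plk4, the kinase that starts centriole duplication, was the other gene of the list higher at an unadjusted p under 0.05, at 0.44 (limma adjusted p = 0.446).

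Red blood cell markers stood higher in 4 of 4 tested genes (median 0.56) with overlapping arrays, from -0.42 to 0.86 in the knock-outs and from -0.98 to 0.24 in the controls. Choroid plexus markers spread as widely within groups, from -0.62 to 0.58 in the knock-outs and from -0.86 to 0.86 in the controls. Vessel cell markers stood higher in 7 and lower in 6 of 13, and oligodendrocyte markers higher in 4 and lower in 6 of 10.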
